A study of Mus musculus with 26 samples.

Results

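The transcripts described here are those whose 5′UTR is listed with a minimum folding free energy above -10 kcal/mol, that is, with almost no predicted secondary structure ahead of the start codon. They were chosen by that energy alone, which the authors listed once per gene as the lowest value over its isoforms. Symbols starting with Rpl, Rps, Mrp, Nduf, Cox or Psm were left out, which takes away most ribosomal, respiratory chain and proteasome subunits. This gave 468 of 8576 transcripts (5.46%) in each of the 2 transgenic tables and 519 of 9561 (5.43%) in the LRRK2 KO table. Before the families were left out, 523, 523 and 574 transcripts lay above the limit, and 55 of them belonged to those families in each table.

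Ribosome footprinting, which sequences the mRNA fragments protected by ribosomes, and RNA-Seq of total RNA were carried out on the caudate putamen (striatum) of C57BL/6 mice aged 3 months. GS LRRK2 TG mice express G2019S LRRK2 and GS/DA LRRK2 TG mice the kinase-dead G2019S/D1994A LRRK2, in both from a Tet-off transgene switched on by a CaMKII-tTA driver, which is active in forebrain neurons and not in every cell of the striatum. Their shared controls were non-transgenic (non-TG) mice of the same strain, and LRRK2 KO mice were set against wild-type (WT) mice. Each library came from the pooled tissue of several mice of both sexes. The labels list 3 footprinting and 3 RNA-Seq libraries of non-TG control, and 2 and 2 of each transgenic genotype. They list 3 footprinting and 2 RNA-Seq libraries each of WT and LRRK2 KO striatum, and the ventral midbrain libraries were not analysed here.

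The small ribosomal subunit is recruited at the cap of an mRNA and scans along the 5′UTR until it meets a start codon in a favourable context. Stable base pairing in the 5′UTR slows this scanning and raises the need for the helicase activity of the eIF4F complex, so unpaired leaders are regarded as easy to scan. Translation efficiency (TE) is the number of footprints per mRNA, taken here as the log2 ratio of the footprinting mean to the RNA-Seq mean in the CDS.

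Each table gives 1 mean of normalized reads per group and assay. Whole reads of the 2 libraries behind a mean could be recovered for every column of the GS/DA and LRRK2 KO tables, with 97.9% to 100% of transcripts resolved per column. Both genotype means of the GS table were recovered as well, but its control means were not, so that comparison has no replicate check and its values are descriptions. The recovered libraries held 6788252 to 16090993 footprints and 10652551 to 13078738 RNA-Seq reads in the CDS for GS/DA LRRK2 TG and its control. For LRRK2 KO and WT they held 2863332 to 6002138 footprints and 3132940 to 10650046 RNA-Seq reads. Where the labels list 3 libraries, the recovered means hold 2, and which 2 is not known. These libraries carry no replicate number, and p-values measure only the spread between these samples. Control and genotype libraries were joined into library pairs by the library difference the 2 groups have in common, which comes from the data and not from the labels.

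Lrrk2 was examined first as the check of the labels. It is listed at -21.00 kcal/mol and is not among the chosen transcripts. Lrrk2 footprints went from 545 normalized reads in WT to 126 in LRRK2 KO, with 690 and 400 in the WT libraries and 150 and 102 in the LRRK2 KO libraries. Lrrk2 RNA-Seq reads were 1006 in WT and 347 in LRRK2 KO, and a total over the gene does not show which part of it the KO allele lacks. In the transgenic tables Lrrk2 footprints were 2524 in control and 5186 in GS LRRK2 TG, and 1335 in control and 6017 in GS/DA LRRK2 TG. The footprint values were higher in both transgenic genotypes and lower in LRRK2 KO, in the direction of the labels. Lrrk2 RNA-Seq means were 2105 in control and 1882 in GS LRRK2 TG, and 2897 in control and 2721 in GS/DA LRRK2 TG. These RNA-Seq means do not support the transgenic labels. Per the study's methods, part of the lysate went to Western blotting as a check of transgene expression, which is not among the data used here. The libraries were at 560 and 5233 in control and 5038 and 404 in GS/DA LRRK2 TG, and at 214 and 3550 in GS LRRK2 TG. Though both tables take their control from non-TG mice, the control footprint value of Lrrk2 was 0.92 higher on the log2 scale in the GS table than in the GS/DA table. The median over all 8576 transcripts of that same comparison was -0.34, and no other transcript reached the value of Lrrk2.

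The RNA-Seq libraries of the transgenic mice stood far apart within a group. In the GS/DA table, the log2 difference of the 2 control libraries had an SD of 1.45 over transcripts, and that of the 2 genotype libraries 1.69. Footprinting libraries of the same groups differed with an SD of 0.32. For LRRK2 KO and WT the SDs were 0.71 for footprinting in both groups, and 0.69 in WT and 0.64 in LRRK2 KO for RNA-Seq. The RNA-Seq split of the transgenic libraries followed CDS base composition. With all transcripts put into 4 equal classes by CDS GC content, the chosen transcripts of the lowest class had a median log2 difference of -1.17 between the control libraries (82 transcripts), and those of the highest class 1.08 (129 transcripts). Between the genotype libraries the same medians were 1.55 and -1.23. The split is therefore of one kind in both groups, and it moves with GC content. Of the chosen transcripts, 191 of 458 (41.7%) differed by more than 1 on the log2 scale between the 2 control RNA-Seq libraries, against 49.6% of the other transcripts. In footprinting 1 of 457 did so (0.219%, against 0.429%).

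The tissue was checked against marker genes. All 10 markers of striatal projection neurons were found in every table, and Ppp1r1b, the DARPP-32 phosphoprotein of these neurons, was the most abundant. Their summed RNA-Seq level was 135069 normalized reads in control and 128138 in GS LRRK2 TG, 145683 and 126970 for GS/DA LRRK2 TG, and 56698 and 58623 for LRRK2 KO. Of 3 endothelial markers 0 were among the transcripts used here. Cortical neuron markers, of which 4 of 6 were found in the transgenic tables, were higher in GS/DA LRRK2 TG than in control, with a median log2 change of 1.10 in RNA-Seq and 1.18 in footprinting. Their most abundant gene, the glutamate transporter Slc17a7, had 1144 and 2568 RNA-Seq reads in control and GS/DA LRRK2 TG. In the GS table the cortical markers had median changes of -0.33 and -0.23. In LRRK2 KO, where all 6 were found, the medians were -0.25 in RNA-Seq and 0.04 in footprinting. Astrocyte markers had median RNA-Seq changes of 0.032 in GS LRRK2 TG, 0.29 in GS/DA LRRK2 TG and -0.21 in LRRK2 KO. For oligodendrocyte markers these were 0.12, 0.055 and -0.066. Ttr, the choroid plexus transthyretin, was lower in both transgenic genotypes, with footprint changes of -2.45 in GS LRRK2 TG and -1.53 in GS/DA LRRK2 TG. Ttr was at 17056 and 1193 in the 2 control footprinting libraries behind the GS/DA value. Those of the genotype were at 1137 and 5162, so this value rests on 1 control library. In LRRK2 KO, Ttr changed by -1.03 in RNA-Seq and 0.12 in footprinting. In bulk tissue, fewer cells of a type and less RNA per cell cannot be told apart, and the part of these markers in the results below was not tested. Of all listed markers only the α-globin gene Hba-a2 is itself among the chosen transcripts.

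The median listed energy of the chosen transcripts was -5.45 kcal/mol for the transgenic mice and -5.4 for LRRK2 KO, against -99.9 and -98.5 for the other transcripts outside the left-out families. For the transgenic mice, 212 of 468 lay above -5 kcal/mol, and 23 were listed at exactly 0. Among the 23 at 0, those highest in footprints, named after their values were seen, were Pebp1, a Raf kinase inhibitor protein, Eif2s3x, a subunit of the factor that brings the initiator tRNA, mKIAA1124, a cDNA locus, Eif3f, a subunit of the factor that holds the small subunit, and Crbn, the substrate receptor of a ubiquitin ligase. Just inside the limit were Got2 (-9.99), Arid1b, D10Wsu102e, Ddx51 and Fez2 (4 of the 6 at -9.90). Just outside it, and among the 7 at the limit itself, were 2410091C18Rik, 3010026O09Rik, Cd164, Dlx6 and Exosc1, taken in order of symbol where energies tied. Of the chosen transcripts, 463 were shared by the transgenic and LRRK2 KO tables. The other 5 of the transgenic tables (Agt, Itih3, Lcat, Lsm5 and Upb1) were not among the LRRK2 KO transcripts, and 56 were chosen in the LRRK2 KO table alone. None of the chosen symbols was listed more than once.

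The annotation was used to describe these transcripts further. The listed energy is a total over the 5′UTR and the lowest value over isoforms. Shorter 5′UTRs, fewer upstream ATGs and single isoforms are therefore in part tied to the choice itself, and no comparison was matched for them. An annotated 5′UTR and CDS were found for 455 of the 468 (97.2%). With 1 isoform per gene, the median 5′UTR was 40 bases (quartiles 27 and 87.5), against 184 bases (100 and 319) for the other transcripts. The 5′UTRs were short and not poor in G and C, with a median GC content of 65.2% against 66.2%. An ATG upstream of the start codon was present in 95 of 455 (20.9%), against 50.7% of the others. A purine stood at position -3 in 404 of 445 (90.8%, against 85.9%) and a G at position 4 in 314 (70.6%, against 51.4%), counting the A of the start codon as position 1. The CDS was shorter as well, with medians of 1056 and 1536 bases, and its GC content was 54.1% against 52.7%. A single annotated isoform was found for 236 of 455 genes (51.9%), against 30.6% of the others.

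The annotated 5′UTRs did not bear out the label for all of the genes. When the 5′UTR of every annotated isoform was folded with RNAfold, all isoforms of a gene lay above -10 kcal/mol for 206 of 455 genes (45.3%), and at least 1 isoform did for 319 (70.1%). For 113 genes an isoform folded at -50 kcal/mol or below. Ppia, which encodes cyclophilin A, is listed at -8.10 kcal/mol, while its annotated 5′UTR of 468 bases folded at -192.4. Tuba1b (α-tubulin) is listed at -5.86 and folded at -97.5. Atp5b (the β subunit of the ATP synthase) is listed at -1.80 and folded at -22.6. Hba-a2, at -6.60 in the list, folded at -6.6. The listed energy is used for the choice throughout.

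Genes whose annotated isoforms all folded above the limit give a direct view of such leaders. The start codon windows of 3 of them with high footprint numbers per mRNA or large TE differences (Ranbp6, Fkbp3, Vps41) and of 3 with low TE (Jph3, Hcn2, Cacng3) are shown from the mm9 genome (NCBIM37 assembly), with up to 24 bases of exonic 5′UTR, the start codon in capitals and the next 3 bases of the CDS. The window of Ranbp6, a nuclear import receptor of the importin family, lies at chr19:29887435-29887464 on the minus strand. That of Fkbp3, a nuclear peptidyl-prolyl isomerase, lies at chr12:66174904-66174931 (minus), and that of Vps41, a subunit of the HOPS tethering complex of lysosomes, at chr13:18809161-18809190 (plus). Those of Jph3, a junctophilin that joins plasma membrane and ER, Hcn2, a pacemaker cation channel, and Cacng3, an AMPA receptor auxiliary subunit, lie at chr8:124254499-124254528, chr10:79179390-79179419 and chr7:129815264-129815293, all on the plus strand.
Ranbp6: tcgcggtagctttgacaggacgcgATGgcg
Fkbp3: gcagcggcagcagcaggggaagATGgcg
Vps41: gtcacatgactctcaggctgcgctATGgcg
Jph3: ggattcgcaaaccgcgttacatgcATGtcc
Hcn2: cgcactgcccggcgccgcctcgccATGgat
Cacng3: ccgttcagagtaccatgaagaattATGagg
The annotated 5′UTRs of Ranbp6 and Vps41 are 24 bases long and that of Fkbp3 22, so these 3 are shown whole, while those of Jph3, Hcn2 and Cacng3 have 60, 35 and 30 bases.

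The chosen transcripts spanned the whole range of expression. Control footprinting means went from 141 to 46270 normalized reads in the GS/DA table, with a median of 634 (quartiles 360 and 1382), against a median of 706 for the other transcripts. Control RNA-Seq means had a median of 665 against 738. In the LRRK2 KO table, whose libraries were shallower, the medians in WT were 152 footprints and 231 RNA-Seq reads, against 163 and 286. With transcripts put into 4 equal classes by expression, the chosen ones made up 6.62% of the lowest class and 4.52% of the highest in the GS/DA table.

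The most highly expressed were Tuba1a, Atp5b, Tuba1b, Ppia, Zwint, Vdac1, Hba-a2 and Tpi1. Per kb of CDS, Ppia had the highest level of these 8 in the GS/DA table control, with 78315 normalized footprints and 50784 RNA-Seq reads per kb. Tuba1a had 34123 footprints and 21985 RNA-Seq reads per kb. Zwint, known as a kinetochore protein and abundant in brain, had 25173 and 18101. Atp5b had 20658 and 23077. Vdac1, the channel of the outer mitochondrial membrane, had 16058 footprints per kb, and Tpi1, the triosephosphate isomerase of glycolysis, 15208. Hba-a2 had 21619 footprints and 43946 RNA-Seq reads per kb. Tuba1a and Tuba1b, the α-globin genes and Ppia with its processed copies are nearly identical to other genes in sequence, so their reads may be shared. By the mean of log2 control footprinting and RNA-Seq over both transgenic tables, the lowest expression was that of Upb1, Lsm5, Iqcc, Rabl3 and 2410066E13Rik, with control footprinting means of 141, 154, 150, 179 and 180 in the GS/DA table.

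In controls, TE of the chosen transcripts was close to that of all the others. Median log2 TE was -0.16 against -0.17 in the GS table control, 0.043 against 0.049 in the GS/DA table control and -0.56 against -0.65 in WT. TE values depend on the scaling of each table and are compared only within it. Each transcript was also set against the median of other transcripts in its bin of control expression (20 bins of equal size). The median of these differences was 0.012, 0.017 and 0.086 in the same order, with 50.9%, 51.9% and 58.4% of transcripts above their bin. With bins of CDS length in place of expression the medians for the GS and GS/DA tables were -0.067 and -0.081. From single library pairs, the GS/DA value lay between -0.064 and -0.016, and that of WT was -0.023, 0.13, 0.067 and 0.22. So in the GS/DA table all 4 combinations of single libraries lay below 0 while the pooled means gave a value above 0, and in WT 3 of 4 combinations were above 0.

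The spread of control TE was narrower among the chosen transcripts. The interquartile range was 0.75 against 1.05 in the GS table control, 0.84 against 1.06 in the GS/DA table control and 0.64 against 0.90 in WT. After subtraction of the bin medians it was 0.74 against 1.01, 0.82 against 1.02 and 0.61 against 0.84. No test was made of this difference, and it is given for the pooled means only. RNA-Seq libraries also lay nearer together for the chosen transcripts. In the GS/DA table control 41.7% of them differed by more than 1 on the log2 scale, against 49.6% of the others, and in WT 7.51% against 11.4%. The part of this in the narrower range was not tested. TE also varied along the energy scale. In the GS/DA table control, median TE was 0.17 for the 23 transcripts listed at 0, -0.051 for 189 from -5 to 0 kcal/mol and 0.09 for 256 from -10 to -5. It was 0.16 for 464 transcripts from -20 to -10 and 0.19 for 1030 in the next lower band. The transcripts between -5 and 0 had the lowest median of these 5 bands in the GS table control (-0.30) and in the GS/DA table control, while in WT the lowest was that of the 26 transcripts at 0 (-0.65), with -0.61 from -5 to 0.

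Control TE was also read by features of the leader, without a test. Those with an upstream ATG had a median control TE of -0.069 in the GS/DA table and those without 0.06. The medians were -0.71 and -0.53 in WT, and -0.32 and -0.15 in the GS table, whose controls are shared. In WT, transcripts with both a purine at position -3 and a G at position 4 had a median TE of -0.50, and those with another start context -0.66. In the GS/DA table control the same medians were 0.05 and 0.036. The 206 genes whose annotated isoforms all fold above the limit had a median TE of 0.043 in the GS/DA table control, and the 249 with some isoform at or below it 0.039. Upstream ATG and start context were read from 1 annotated isoform per gene. For 136 of the 455 genes of the transgenic tables no annotated isoform folded above the limit, so these features may not be those of the leader behind the listed energy.

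Among chosen transcripts with all 4 group means at 500 or more in the GS/DA table (246 transcripts), the highest control TE was that of Ermn, Acta1, Sucla2, Atad1 and Ranbp6. Ermn encodes ermin, a cytoskeletal protein of myelinating oligodendrocytes, and had 1925 footprints and 506 RNA-Seq reads in control (log2 TE 1.93). Its 2 control RNA-Seq libraries stood at 188 and 824 normalized reads, while its footprints were 1792 and 2057. Acta1, the skeletal muscle actin, had a log2 TE of 1.48, and its reads may be shared with those of other actins. Sucla2, a subunit of the succinyl-CoA synthetase of the citric acid cycle, had 1.35, Atad1, an AAA ATPase that extracts proteins from membranes, 1.34, and Ranbp6 1.27. For Ranbp6 the control RNA-Seq libraries held 133 and 903 normalized reads and the footprinting libraries 1075 and 1417. The values of Ermn and Ranbp6 thus rest on a mean of RNA-Seq libraries that differ several-fold. In WT, whose RNA-Seq libraries held 367 and 323 reads of Ranbp6, its TE was 0.29 where the median of all transcripts was -0.64.

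The lowest control TE was that of Msl1, Jph3, Hcn2, Eml2 and Prmt8. Of these, Msl1, Eml2 and Prmt8 have annotated 5′UTRs that folded at -158.2, -76.1 and -352.4 kcal/mol, while those of Jph3 and Hcn2 stayed above the limit. Msl1, a subunit of a histone acetyltransferase complex, had 525 footprints and 2578 RNA-Seq reads in the control of the GS/DA table (log2 TE -2.30) and 134 and 1073 in WT. Jph3 had 1623 and 5877 (TE -1.86) and in WT 463 and 2131 (-2.20). Hcn2 had a TE of -1.78 and in WT -2.65, and Eml2, a microtubule-binding protein, -1.58 and -2.04. Prmt8, a brain arginine methyltransferase, had -1.40 and -1.24. These 5 were low in the GS table control too, with values from -2.44 to -1.48. The control RNA-Seq libraries of the GS/DA table stood apart for Jph3 (8386 and 3368 normalized reads), Hcn2 (4167 and 1016) and Eml2 (5914 and 1808), and less so for Msl1 (2872 and 2283) and Prmt8 (2225 and 2981).

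Changes by genotype were first set against transcripts of like expression. In GS LRRK2 TG the median change of the chosen transcripts against their bins was -0.043 in TE, -0.011 in footprinting and 0.033 in RNA-Seq, all on the log2 scale. In GS/DA LRRK2 TG it was 0.037 in TE, -0.007 in footprinting and -0.049 in RNA-Seq. In LRRK2 KO it was -0.0075 in TE, -0.036 in footprinting and -0.026 in RNA-Seq. The 2 transgenic comparisons share control samples, so their values stand side by side and are not compared. In TE, 39.1% of the chosen transcripts lay above their bin in GS LRRK2 TG, 60.5% in GS/DA LRRK2 TG and 48% in LRRK2 KO.

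The GS/DA values depended on which RNA-Seq libraries were used. With RNA-Seq pair 1 (the control library of 10652551 reads and the GS/DA LRRK2 TG library of 13078738) the TE difference against bins was -0.046 and -0.065 for the footprinting pairs. With RNA-Seq pair 2 it was 0.11 and 0.094. The RNA-Seq change against bins was 0.042 from pair 1 alone and -0.12 from pair 2. Without GS/DA LRRK2 TG RNA-Seq library 1 (10989790 reads) the pooled TE difference was -0.056 and the RNA-Seq change 0.043. Without GS/DA LRRK2 TG RNA-Seq library 2 (13078738 reads) they were 0.10 and -0.12. The footprinting change was 0.0019 from footprinting pair 1 and -0.028 from pair 2. No direction of the group change therefore held over the libraries of this comparison.

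In LRRK2 KO the library pairs gave nearer values than single libraries did. The RNA-Seq change against bins was -0.019 from RNA-Seq pair 1 and -0.02 from pair 2. The TE difference against bins was 0.0049, -0.0026, -0.02 and -0.03 over the combinations of library pairs. The footprinting change was -0.0041 and -0.008 from footprinting pair 1 and -0.058 and -0.057 from pair 2, below 0 in each. Leaving out a single library breaks a pair, and the TE difference then went from -0.12 (without LRRK2 KO RNA-Seq library 2) to 0.068 (without LRRK2 KO RNA-Seq library 1). It was 0.052 without WT RNA-Seq library 2 and -0.077 without WT RNA-Seq library 1, and it was 0.023 without WT footprinting library 2 and 0.017 without LRRK2 KO footprinting library 1. The RNA-Seq change against bins was 0.034 without WT RNA-Seq library 1, -0.094 without WT RNA-Seq library 2, -0.089 without LRRK2 KO RNA-Seq library 1 and 0.068 without LRRK2 KO RNA-Seq library 2. The footprinting change was -0.094 without WT footprinting library 1 and 0.0019 without LRRK2 KO footprinting library 1.

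Transcript by transcript, limma on the recovered libraries called 0 of 455 chosen transcripts in GS/DA LRRK2 TG and 0 of 518 in LRRK2 KO at an adjusted p under 0.05, in TE, in footprinting and in RNA-Seq. Over all transcripts fitted, 0% were called in each of these. Lrrk2 itself, fitted in LRRK2 KO, was thus not called there, although its footprint means were 545 in WT and 126 in LRRK2 KO. The median SE of the TE difference of chosen transcripts was 0.65 in GS/DA LRRK2 TG and 0.38 in LRRK2 KO. A count of 0 from this fit therefore does not show that the chosen transcripts were unchanged. The 13 chosen transcripts that could not be fitted in GS/DA LRRK2 TG are those with most control footprints, among them Tuba1a, Atp5b, Tuba1b, Ppia, Zwint, Vdac1, Tpi1, Hba-a2 and Acta1, so the top of the expression range was not tested there. With the replicate block in limma, 0 chosen transcripts were called as well, against 0.012% of all transcripts in GS/DA footprinting, 0.0628% in LRRK2 KO footprinting and 0.0838% in LRRK2 KO RNA-Seq. At an unadjusted p under 0.05 the limma block gave 1, 10 and 12 chosen transcripts in GS/DA for TE, footprinting and RNA-Seq (0.22%, 2.2% and 2.64%, against 0.264%, 2.96% and 4.28% of all transcripts). In LRRK2 KO it gave 8, 12 and 27 (1.54%, 2.32% and 5.21%, against 1.74%, 1.86% and 5.31%). Without the block, at an unadjusted p under 0.05, limma gave 0 chosen transcripts in GS/DA LRRK2 TG for any of the 3 measures, against 0%, 0.024% and 0.024% of all transcripts. In LRRK2 KO there was 1 in TE (0.193%, against 0.0209% of all), 0 in footprinting (against 0.136%) and 0 in RNA-Seq (against 0.0733%). That transcript was Poll, a DNA polymerase of base excision and end joining repair, named after its values were seen. It had 48.5 footprints in WT and 28.3 in LRRK2 KO, with 92.4 and 116 RNA-Seq reads. Its TE difference in the limma model was -0.92 with an SE of 0.38, and the adjusted p was 1 (limma).

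The cutoff on the spread over transcripts, a z score of the TE difference at 1.5 or above or at -1.5 or below, gave counts that have no replicate error. In GS LRRK2 TG, 28 of 468 chosen transcripts were past the upper cutoff (5.98%), against 8.01% of all transcripts, and 17 past the lower (3.63%), against 3.91%. In GS/DA LRRK2 TG the counts were 26 (5.56%), against 3.65%, and 16 (3.42%), against 7.36%. In LRRK2 KO they were 19 of 519 (3.66%), against 6.23%, and 43 (8.29%), against 6.02%. With all means at 2 times the authors' read minimum or more, 152 chosen transcripts were left in LRRK2 KO, and the counts were 4 (2.63%, against 6.38% of all) and 6 (3.95%, against 6.04%). The lower share of LRRK2 KO was thus above that of all transcripts without this limit and below it with the limit. It also turned with the footprinting pair, at 6% (against 6.16%) and 4.63% (against 5.8%) with pair 1 and 6.58% (against 6.08%) and 7.54% (against 5.86%) with pair 2. In GS/DA LRRK2 TG both comparisons turned round with the RNA-Seq pair. With RNA-Seq pair 1 the upper shares were 3.96% (against 7.7%) and 3.52% (16 transcripts, against 6.02%) for the footprinting pairs, and the lower shares 4.62% (against 3.38%) and 3.3% (against 2.94%). With RNA-Seq pair 2 the upper shares were 7.25% (against 3.99%) and 6.59% (against 4.04%), and the lower shares 3.74% (against 6.5%) and 4.4% (against 7.6%).

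In GS LRRK2 TG the highest TE differences among transcripts with 500 reads or more in each mean were those of Sucla2, Vps41, Fxr1 and AK031561. Sucla2 had 3914 footprints in control and 4241 in GS LRRK2 TG, and 1799 and 1203 RNA-Seq reads, a TE difference of 0.70. Vps41 had 1808 and 2164 footprints and 2005 and 1485 RNA-Seq reads (0.69). Fxr1, an RNA-binding protein of the fragile X family, had 1473 and 1429 footprints and 887 and 601 RNA-Seq reads (0.52). AK031561, a cDNA locus, had a difference of 0.47. In the group means of all 4 the RNA-Seq part was the larger one. The 2 RNA-Seq libraries of this genotype stood far apart, at 424 and 1982 for Sucla2, 725 and 2246 for Vps41, 126 and 1075 for Fxr1 and 1108 and 4783 for AK031561. In each of these, 1 library was above the control mean and the other below it, and the split of this mean into libraries is less sure than the others. The lowest were those of Fabp5, a fatty acid binding protein (-0.40, with RNA-Seq means of 3761 and 5238), Prdx5, a mitochondrial peroxiredoxin (-0.39), Sars, the seryl-tRNA synthetase (-0.31), and Ppa2, an inorganic pyrophosphatase (-0.28). Their RNA-Seq libraries in this genotype held 2378 and 8098 for Fabp5, 4548 and 9250 for Sars and 773 and 2722 for Ppa2, on either side of the control means, and 5525 and 6317 for Prdx5, both above its control mean of 5096. None of these has a replicate check.

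In GS/DA LRRK2 TG the lowest TE differences were those of Fxr1, Ermn, Zfp292 and Sucla2. Fxr1 had 843 RNA-Seq reads in control and 1490 in GS/DA LRRK2 TG, with 1863 and 1895 footprints (TE difference -0.80). Its control RNA-Seq libraries held 304 and 1383 normalized reads and its GS/DA LRRK2 TG libraries 2748 and 232, so the groups overlapped. Zfp292, a zinc finger protein, held 75.5 and 1242 in the control libraries and 1677 and 52.3 in those of the genotype, for a TE difference of -0.55. Its footprints were steady beside this, at 765 and 937 in control and 688 and 835 in GS/DA LRRK2 TG. Ermn (-0.59) had 188 and 824 against 1316 and 97.3, and Sucla2 (-0.45) 1248 and 2793 against 4324 and 919. In each of these 4 genes, 1 library of each group was low and the other high. On the log2 scale of single libraries the limma TE difference of Fxr1 was -0.29 with an SE of 1.74, and that of Zfp292 -0.14 with an SE of 2.55.

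The highest TE differences in GS/DA LRRK2 TG were those of Fabp5 (0.34), Clns1a (0.31), U2af1l4 (0.23) and Dcps (0.23). Fabp5 held 1883 and 8258 RNA-Seq reads in the control libraries and 6080 and 2190 in those of GS/DA LRRK2 TG. Clns1a, a chaperone of snRNP assembly, held 814 and 1903, and 1316 and 842. U2af1l4, a splicing factor related to U2AF, held 981 and 1320, and 912 and 941. Dcps, the scavenger decapping enzyme, was the steadiest of the 4, with 573 and 624 against 467 and 559 RNA-Seq reads and footprints between 576 and 579 in all 4 libraries. Both GS/DA LRRK2 TG values of Dcps and of U2af1l4 were below both control values in RNA-Seq. Neither passed the test, and the limma p of Dcps in TE was 0.546 without the replicate block and 0.262 with it.

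In LRRK2 KO the highest TE differences were those of Acta1 (0.83), Zwint (0.40), Fkbp3 (0.32) and Ppia (0.28). Acta1 had 1965 RNA-Seq reads in WT and 1135 in LRRK2 KO, with libraries at 2871 and 1058 in WT and 1318 and 951 in LRRK2 KO. A single WT library was high, and the limma TE difference was 0.68 with an SE of 0.63. Zwint held 5862 and 2880 in WT and 3591 and 2821 in LRRK2 KO. Fkbp3 held 1046 and 656, and 733 and 626, and its footprints were 1091 and 1090 in the group means. For all 4 the footprint change was between -0.051 and 0.044. The lowest were those of Hba-a2 (-0.56), Atp5k (-0.48), Kctd17 (-0.27) and Abcf1 (-0.23). Hba-a2 had 654 and 2517 footprints in the WT libraries and 690 and 1252 in those of LRRK2 KO, so its difference lay in footprinting pair 2, and which of these 2 libraries is unusual cannot be told. The 3 blood markers found, Hba-a2 among them, had a median footprint change of -0.64. Atp5k, the e subunit of the ATP synthase, had 891 and 1230 RNA-Seq reads, Kctd17, a ubiquitin ligase adaptor, 1816 and 2324, and Abcf1, an ABC protein that associates with ribosomes, 906 and 1015.

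Some chosen transcripts were past a cutoff in the same direction in LRRK2 KO and in a transgenic genotype. TE was past the upper cutoff in 3 of 463 (0.648%), Acta1, 6530401N04Rik and Lztfl1, against 51 of 8535 transcripts found in all tables (0.598%). It was past the lower one in 1 (0.216%), Rrp9, against 64 (0.75%). Lztfl1, a regulator of ciliary traffic of the BBSome, had differences of 0.51 in GS LRRK2 TG, -0.62 in GS/DA LRRK2 TG and 0.55 in LRRK2 KO. Its RNA-Seq reads were 187 and 122 in WT and 94 and 117 in LRRK2 KO, and its footprints 236 and 193, and 217 and 214. In the GS/DA table Lztfl1 RNA-Seq stood at 56.3 and 308 in control and 534 and 40.5 in GS/DA LRRK2 TG. Rrp9, a protein of the U3 snoRNP that processes rRNA, had -0.42 in GS LRRK2 TG and -0.47 in LRRK2 KO, and -0.12 in GS/DA LRRK2 TG. 6530401N04Rik had 0.21 in GS/DA LRRK2 TG, 0.52 in LRRK2 KO and 0.15 in GS LRRK2 TG. Acta1 had 0.22 in GS/DA LRRK2 TG and 0.83 in LRRK2 KO, but -0.26 in GS LRRK2 TG. In limma, fitted for LRRK2 KO in all 4 and for GS/DA in all but Acta1, none passed, and the GS values were not tested.

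Gene families defined by symbol differed in how often their members lay above the limit, against 5.46% of all transcripts in the transgenic tables. Initiation and elongation factors had 8 of 60 (13.3%), the RNA polymerase and snRNA transcription complexes 16 of 117 (13.7%), and the ATP synthase, cytochrome bc1 and succinate group 6 of 34 (17.6%). Mitochondrial import had 4 of 27 (14.8%), chaperones and peptidyl-prolyl isomerases 8 of 78 (10.3%) and COMM domain proteins 3 of 7 (42.9%). Solute carriers (8 of 141, 5.67%), vesicle traffic (12 of 220, 5.45%) and zinc finger proteins (11 of 210, 5.24%) stood near the share of all transcripts. Neuronal channels, receptors and synaptic proteins had 6 of 140 (4.29%) and ubiquitin enzymes 9 of 220 (4.09%). The symbol rule also took Snapc1, Snapc2 and Snapc5, which act in snRNA transcription, among neuronal proteins.

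The 8 translation factors are Eif2b2, Eif2s3x, Eif3f, Eif3g, Eif3i, Eif3j, Eif3m and Eif4h, so 5 of them belong to eIF3. Eif4h, which stimulates the eIF4A helicase, had 5923 footprints and 4715 RNA-Seq reads in the GS/DA table control (TE 0.33) and TE differences of -0.085 in GS, -0.037 in GS/DA and 0.0074 in LRRK2 KO mice. Eif3i had 2434 and 2157 (TE 0.17) and differences of -0.091, -0.0085 and -0.06. The median TE difference of the 8 was -0.036, -0.12 and -0.019. Eif3j, named after its values were seen, had 0.82 in GS LRRK2 TG and -0.59 in GS/DA LRRK2 TG, which share controls.

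For vesicle traffic the median control TE was 0.31 in the GS/DA table, with 10 of 12 transcripts above their bin, and -0.49 in WT, with 7 of 12. Of all chosen transcripts, 51.9% lay above their bin in the GS/DA table control and 58.4% in WT, and no family was tested against these shares. Rab6b, a neuronal Golgi GTPase, had 11391 footprints per kb in the GS/DA table control and a TE of 1.17. Its RNA-Seq libraries held 4831 and 1529 in control, and 1670 and 5032 in GS/DA LRRK2 TG. Among the chaperones (median 0.40, 5 of 8 above their bin), Dnaja2, an Hsp40 co-chaperone, had a TE of 0.86 in the GS/DA table control and 0.38 in WT. Mitochondrial import had a median of -0.22 in the GS/DA table control, with 1 of 4 above the bin, and of -0.61 in WT, with 3 of 4 above it. Its Tomm22, a receptor of the outer membrane translocase, had TE differences of -0.18 in GS, -0.02 in GS/DA and -0.0033 in LRRK2 KO mice.

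Rgs2, a regulator of G protein signalling with a role in striatal neurons, was lower in both assays in GS/DA LRRK2 TG. It had 4727 footprints in control and 3118 in GS/DA LRRK2 TG, with 4266 and 5188 in the control libraries and 3236 and 3000 in the others, so the groups did not overlap. Its RNA-Seq reads were 2915 and 1880, with 2076 and 3754 in control and 2369 and 1391 in GS/DA LRRK2 TG. Within library pairs they went from 2076 to 1391 (RNA-Seq pair 1) and from 3754 to 2369 (pair 2). Footprints were lower within both footprinting pairs as well. The footprint difference in limma was -0.59 with an SE of 0.41 and the RNA-Seq difference -0.62, and neither passed the test (adjusted p 1). With the replicate block neither passed at an adjusted p under 0.05 (limma). The TE difference was 0.032. In GS LRRK2 TG, which shares controls, Rgs2 footprints were 3282 and 2977 and RNA-Seq reads 2029 and 1401, a TE difference of 0.39 (z 1.58). The libraries of that genotype held 2630 and 3323 footprints, 1 of them above the control mean, and 1059 and 1743 RNA-Seq reads. In the GS/DA table the striatal neuron markers were lower as well, with median changes of -0.21 in footprinting and -0.18 in RNA-Seq, and their part in the value of Rgs2 was not tested. Gnb5, the G protein β subunit that pairs with the R7 RGS proteins of the striatum, had 8959 and 8249 footprints in the GS/DA table and 7096 and 5738 in the GS table.

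Among neuronal genes, Cacng3 had a low TE, -1.20 in the GS/DA table control and -2.21 in WT. Its RNA-Seq libraries held 2119 and 664 in the non-TG control and 580 and 1736 in GS/DA LRRK2 TG. Bptf, the large subunit of a nucleosome remodelling factor, had TE differences of 0.41 in GS LRRK2 TG and -0.31 in GS/DA LRRK2 TG. Commd4, with an annotated 5′UTR of 25 bases, was steady in every comparison, with TE differences of 0.041, -0.077 and 0.051 and RNA-Seq libraries between 878 and 1142 in the GS/DA table. Snw1, a splicing factor, had 0.28, -0.079 and 0.038, and Polr2e, a subunit shared by RNA polymerases, 0.0034, 0.059 and 0.016.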

How the data were processed

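Per the submitters' notes and the study's methods, the authors aligned reads to mm9 with TopHat2 2.0.11 and Bowtie2 2.2.2, counted CDS reads over the union of isoforms, discarded transcripts under 128 reads, normalized with DESeq 1.20 and deposited group means per table, which are a signal without an SD. The deposited folding energy is a score in kcal/mol. The deposited TE, TE difference and z columns hold the authors' own comparisons and were not used. Log2 TE, its differences, the bins and z scores were recomputed with a pseudocount of 0. Each mean was split into the whole reads of its 2 libraries and their size factors where only 1 solution existed. This was tested on simulated data, as was limma 3.58.1 (R 4.3.3), fitted to log2 of recovered normalized reads with a pseudocount of 10, genotype, assay and their interaction, with Benjamini-Hochberg adjustment over each table. The simulated libraries differed far less than the real ones, so that test does not show what limma could find here. Per the study's methods each lysate was split between footprinting and RNA-Seq. Libraries of the 2 assays were not matched to each other here, and limma without the block treats them as independent. GS LRRK2 TG was not fitted because its control libraries were not recovered. 5′UTRs of up to 2000 bases were folded with ViennaRNA 2.7.2 from GENCODE transcripts on NCBIM37. Named genes are those highest and lowest in expression, in control TE and in TE difference (with 500 reads or more per mean for the last 2), those highest in footprints in each family, those nearest the limit and those past the z cutoff in 2 tables or more. The genes at 0 kcal/mol, Eif3j and Poll were chosen after their values were seen. The members and lists were chosen with earlier results of these data known. Some genes that this rule takes in are not reported here.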

Additional observations from a re-analysis of the deposited data

How the results depend on the processing

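Over 27 results and 331 alternatives, 244 kept their direction and stayed within the spread between library pairs, or within 1.5 times a count, 60 moved further and 27 changed sign. The spread is the SD over library pairs, and the GS table, without recovered controls, takes that of the GS/DA table. In LRRK2 KO RNA-Seq this SD was only 0.00068, from 2 near-equal pair values, so even small shifts count there as moved. For both transgenic comparisons it was 0.091 in TE and 0.094 in RNA-Seq. The median changes judged by it were smaller, at -0.043 (GS) and 0.037 (GS/DA) in TE and 0.033 and -0.049 in RNA-Seq. Nearly any alternative of the same sign stays within such a spread, so the 244 are not a measure of stability there. Library pairs for bins and counts, annotated isoforms and the crossed block were added after seeing the data. The cause of each shift was not tested.

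For control TE, the medians above -5 kcal/mol were -0.28 (GS) and -0.025 (GS/DA), and above -20 kcal/mol 0.086 (GS/DA). Library pairs gave 0.014, 0.012, 0.0077 and 0.068 in GS/DA, and -0.70, -0.60, -0.57 and -0.45 in LRRK2 KO. In LRRK2 KO, limits of 2 and 4 times the deposited read minimum on every mean gave -0.38 and -0.25. Leaving out libraries gave 0.0094 to 0.044 in GS/DA. Control TE against bins of CDS length was -0.067 (GS) and -0.081 (GS/DA), and against bins of CDS GC content 0.064 (GS). Library pairs gave -0.025, -0.064, -0.016 and -0.035 in GS/DA, and -0.023, 0.13, 0.067 and 0.22 in LRRK2 KO.

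The TE difference against bins was -0.046 and -0.065 in GS/DA with RNA-Seq pair 1, and -0.056 to 0.10 with libraries left out. In LRRK2 KO it was 0.00099 with bins of CDS GC content, -0.035 above -5 and 0.0075 above -20 kcal/mol, -0.05 at 4 times that minimum, 0.0049 and -0.03 in library pairs, and -0.12 to 0.068 with libraries left out. The footprinting change in GS/DA was 0.0045 with bins of CDS length, 0.00068 at 4 times the minimum, and 0.0019 and -0.028 in library pairs. In LRRK2 KO it was -0.0041 in pair 1 and -0.094 to 0.0019 with libraries left out. The RNA-Seq change in GS/DA was 0.042 in pair 1 and -0.12 to 0.043 with libraries left out. In LRRK2 KO it was -0.023 with 10 bins, -0.013 with bins of control RNA-Seq, -0.031 with bins of CDS GC content, 0.0059 with bins of CDS length, -0.025 with a pseudocount of 10, -0.027 with 1 transcript per symbol, -0.013 above -5 and -0.044 above -20 kcal/mol, -0.027 without energies of 0, -0.024 with the families kept, -0.02 and -0.0052 at 2 and 4 times the minimum, -0.019 and -0.02 in library pairs, and -0.094 to 0.068 with libraries left out.

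Counts past z cutoffs are given with the share of chosen and of all transcripts. In GS, cutoffs of 1 and 2 gave 45 up (9.62% and 15.6%) and 12 (2.56% and 3.71%), and 72 down (15.4% and 12.9%) and 8 (1.71%, and 88 of all 8576). In GS/DA they gave 72 up (15.4% and 11.5%) and 4 (0.855% and 1.12%), and 36 down (7.69% and 13.3%) and 10 (2.14% and 4.09%). In LRRK2 KO they gave 48 up (9.25% and 14.3%) and 7 (1.35% and 2.9%), and 81 down (15.6% and 14.8%) and 13 (2.5% and 2.18%). At 4 times the minimum there were 13 up (6.31% and 7.96%) and 7 down (3.4% and 3.27%) in GS and 12 up in GS/DA (5.06% and 2.47%). In LRRK2 KO there were 4 up (2.63% and 6.38%) and 6 down (3.95% and 6.04%) at 2 times the minimum, and 2 up (2.74% and 6.7%) and 4 down (5.48% and 6.83%) at 4 times. Footprinting pair 2 with RNA-Seq pair 1 gave 16 up in GS/DA (3.52% and 6.02%). With RNA-Seq pair 1 the shares down in GS/DA were 4.62% and 3.38%, and 3.3% and 2.94%, the reverse of the pooled 3.42% and 7.36%. Pair 1 with pair 2 gave 29 up (5.6% and 5.86%) and 24 down (4.63% and 5.8%) in LRRK2 KO.

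With the replicate block, limma called 0 chosen transcripts in both tables and all 3 measures, as with the crossed block and each library left out. At an unadjusted p under 0.05 the limma block gave 1, 10 and 12 in GS/DA and 8, 12 and 27 in LRRK2 KO for TE, footprinting and RNA-Seq, against 0.264%, 2.96% and 4.28%, and 1.74%, 1.86% and 5.31%, of all transcripts. As shares of the chosen transcripts these are 0.22%, 2.2% and 2.64%, and 1.54%, 2.32% and 5.21%. The pairing comes from the data: library differences of control and genotype correlated over transcripts at 0.78 and -0.97 in GS/DA and at 0.86 and 0.78 in LRRK2 KO for footprinting and RNA-Seq.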
